A study of Homo sapiens with 2 samples.

Results

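Heterotrimeric G proteins and the RGS proteins that switch them off were described in A673 cells, an established human Ewing sarcoma line driven by the EWS/FLI1 fusion. The genes were taken by symbol: every G alpha gene apart from GNAT3, the 5 G beta genes, every G gamma gene and every numbered RGS gene, without names that hold a hyphen. This gave 53 genes of the 23365 kept in the gene tables: 15 alpha, 5 beta, 12 gamma and 21 RGS genes. Cells had been transduced with lentivirus coding for a hairpin aimed at RUNX3, whose protein binds DNA through a Runt domain, or for a hairpin that has no target, in both cases with polybrene, which aids virus entry, at 6 µg/mL. The virus had been collected from HEK 293T cells at 72 h, and both populations were selected with puromycin at 0.4 µg/mL for 6 days. There is 1 poly(A) RNA library for each hairpin, titled as a pool; with nothing to show the spread between cultures, differences were not tested and carry no p. In such bulk RNA, fewer cells of a kind and less RNA per cell cannot be told apart. The libraries are called 813 (the RUNX3 hairpin) and NT (non-target) after their titles. The shRNA characteristic of each library says the opposite of its title, and taking it would turn round every direction given here.

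RUNX3 itself, given as a check of the titles, had 387 pairs in the 813 library and 1391 pairs in the NT library, a log2 fold of -1.92 (-2.09 to -1.76). The direction fits the titles, not the characteristics. Gene counts summed to 23342660 read pairs in 813 and 24326135 in NT. Levels are given as CPM, pairs scaled by the effective library size, or as the authors' RPKM where genes of different length are compared. Genes that reached 1 CPM in either library count as measured. Those that differed at least 2-fold, with the whole interval beyond 1.5-fold, were called higher or lower in 813, and intervals in parentheses are exact 95% binomial intervals that cover counting error only. Over all 12254 measured genes this rule gave 8.13% higher and 3.48% lower in 813. Higher genes made up 70.0% of these calls, and 81.5% with plain library totals, which moved the median log2 fold of all genes to 0.15, against 0.01. Of the Ewing sarcoma line markers CD99, NKX2-2, NR0B1, STEAP1, PAX7, CCND1, CAV1 and LIPI, 8 of 8 were measured. They summed to 6554 CPM in 813 and 6179 CPM in NT, mostly from CD99 with 4026 CPM in 813 and 3808 CPM in NT. Their median log2 fold was -0.42, and 3 were lower (PAX7, NKX2-2 and NR0B1), 37.5% beside 3.48% over all genes. Of 5 markers of HEK293, the kind of cell that made the virus, 3 were measured, summing to 8.63 CPM in 813 and 12.5 CPM in NT, and GATA3 was lower; PAX2 and LHX1 had 0 and 0 pairs in 813, against 1 and 0 in NT. Of 5 leukocyte markers 3 were measured, summing to 13.4 CPM in 813 and 13.7 CPM in NT; the defining markers PTPRC and CD3E had 0 and 0 pairs in 813, against 1 and 0 in NT. The part of these cells in the results was not tested.

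A heterotrimeric G protein is an alpha subunit that binds GTP and a beta subunit paired with a gamma subunit. A receptor of the seven-helix type makes the alpha subunit exchange GDP for GTP, and alpha and beta-gamma then act on separate effectors. Gs alpha raises and Gi alpha lowers cyclic AMP, Gq alpha activates phospholipase C beta, and G12/13 alpha acts on exchange factors of the small GTPase RhoA. RGS proteins end the signal by speeding up GTP hydrolysis on alpha, mostly of the Gi and Gq classes.

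The make-up of these genes in A673 was dominated by few members. Of the 53 genes 31 were measured, 22 lay under 1 CPM in both libraries, and 5 of those (GNGT1, RGS1, RGS7, RGS8 and RGS22) had no pair in either library, which at a floor of 3 pairs allows up to 0.123 CPM in 813 and 0.129 CPM in NT. By RPKM, GNAS, the gene of Gs alpha, held 59.6% of the summed level of the alpha genes in 813 and 62.3% in NT. GNAI2, a Gi alpha, held 21.8% in 813 and 21.9% in NT, and GNA11, of the Gq class, 10.4% in 813 and 10.2% in NT. Among beta genes GNB2 held 58.2% in 813 and 67.2% in NT, and GNB1 held 38.3% in 813 and 30.5% in NT. GNG5 alone held 80.5% of the gamma level in 813 and 84.98% in NT. No RGS gene dominated in this way: RGS16 held 29.96% in 813 and 24.8% in NT, and RGS19, RGS10 and RGS12 each held between 14.1% and 23.6% in both libraries. The summed RPKM of the RGS genes was 56.3 in 813 and 59.2 in NT, against 503 in 813 and 612 in NT for the alpha genes. RPKM rests on the authors' read totals, without the scaling used for the folds. It also divides by the whole listed length of a gene. For GNAS this is 5639 bases, which include 5′ records of 1147 and 2353 bases that held few reads, as given below. RPKM therefore understates the level and share of GNAS and overstates the shares of the other alpha genes.

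**Figure D1:**
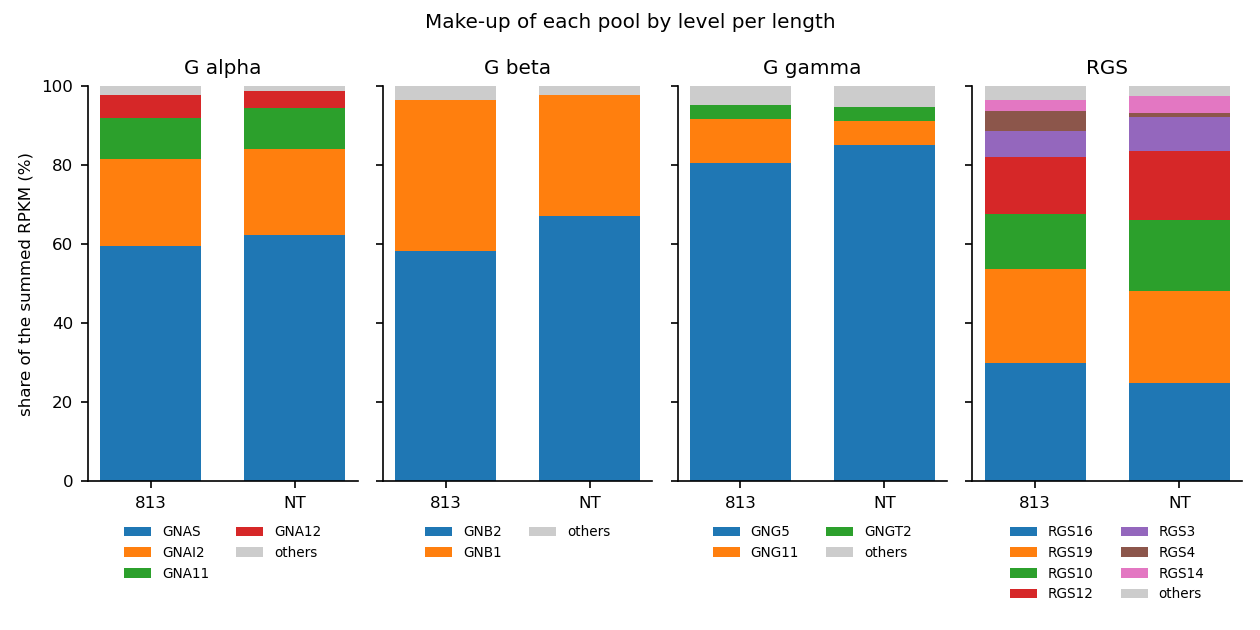
Share of the summed authors' RPKM (%, vertical axis) that each gene holds among alpha, beta, gamma and RGS genes, in the 813 (left bar) and NT (right bar) library of each panel; genes under 3% in both libraries are grouped as others. GNG5 fills 80.5% of the gamma bar in 813 and 84.98% in NT, while the RGS bars are divided among several genes. The share of GNAS is understated, because its listed length includes 5′ records with few reads.

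Of the 31 measured genes, 4 were higher and 2 lower in 813, with 25 in neither direction. The 4 higher genes are 12.9% of those measured and the 2 lower ones 6.45%, beside 8.13% and 3.48% over all genes, and the median log2 fold was 0.00 beside 0.01 over all genes. The 4 higher genes were RGS4, GNA14, GNG2 and GNAZ, and the 2 lower genes were GNG7 and GNG4. The 6 called genes all lay far below the leading gene of their class by RPKM. The highest RPKM among them was 4.10, of GNAZ in 813, and the main subunit genes named above were not called.

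**Figure D2:**
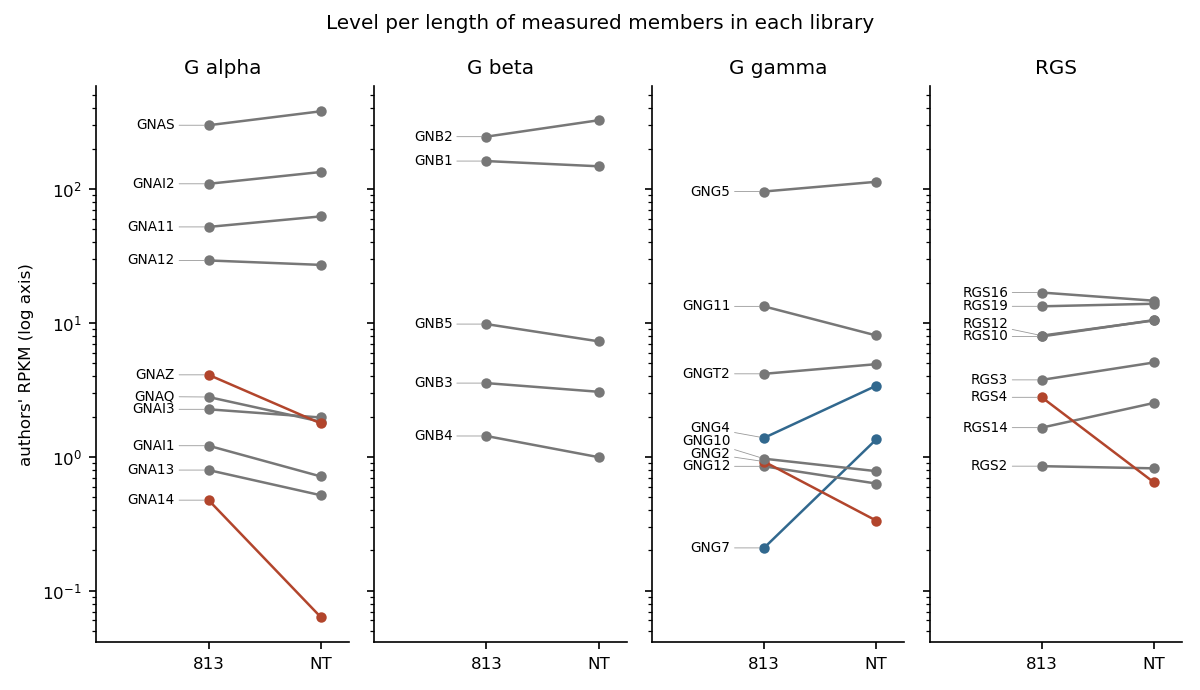
Authors' RPKM (log axis) of the 31 measured genes in the 813 (left points) and NT (right points) library, 1 line per gene, by subunit class; red lines are genes called higher and blue lines genes called lower in 813. GNG7 lies at 0.209 RPKM in 813 against 1.35 in NT, and RGS4 at 2.78 in 813 against 0.645 in NT, while GNAS, GNB1, GNB2 and GNG5 stay at the top in both.

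Among the measured alpha genes the abundant GNAS, GNAI2 and GNA11 had negative log2 folds, and GNA12 had an interval that includes no difference. The scarcer ones had positive log2 folds, for GNAI3 with an interval that includes no difference. GNAS (chr20:57414795-57486250 in hg19, plus strand) had 51404 pairs in 813 and 67808 pairs in NT, a log2 fold of -0.48 (-0.49 to -0.46). GNAI2 had 7933 pairs in 813 and 10082 in NT (-0.42, -0.46 to -0.38). GNA11 had 2537 pairs in 813 and 3155 in NT (-0.39, -0.47 to -0.31). These folds are small beside the rule of size, and they moved when the trend of all genes on GC content and length was removed. The transcripts of GNAS, GNAI2 and GNA11 are 58.9%, 56.0% and 62.8% G and C, and their log2 folds were then -0.31, -0.14 and 0.07. GNA12, which couples to RhoA exchange factors, had 3907 pairs in 813 and 3758 in NT, a log2 fold of -0.02 (-0.08 to 0.05) and of 0.12 with plain library totals. Its close relative GNA13 had 153 pairs in 813 and 103 in NT (0.49, 0.13 to 0.87), 6.25 CPM in 813 against 4.44 in NT.

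GNAI1, GNAI3 and GNAQ, Gi- and Gq-class genes that were measured at lower levels, had log2 folds above 0, for GNAI3 with an interval that includes 0. GNAI1 had 134 pairs in 813 and 82 in NT (log2 fold 0.63, 0.23 to 1.05), GNAI3 had 326 in 813 and 294 in NT (0.07, -0.16 to 0.31), and GNAQ had 187 in 813 and 127 in NT (0.48, 0.15 to 0.82). GNAI3 turned to -0.31 with the GC and length trend removed, and GNAI1 and GNAQ were at 0.54 and 0.41. All 8 exon records of GNAI1 with at least 20 reads, and all 7 of GNAQ, had log2 folds above 0, the lowest at 0.14 in GNAI1 and 0.15 in GNAQ.

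GNAZ and GNA14 were the alpha genes that were called. GNAZ (chr22:23412669-23467221, plus strand) encodes Gz alpha, a slowly hydrolysing Gi-class subunit known from neurons and platelets that resists pertussis toxin. It had 400 pairs (16.4 CPM) in 813 and 180 pairs (7.75 CPM) in NT, a log2 fold of 1.07 (0.82 to 1.34), and 1.32 with the GC and length trend removed. Its middle exon record (chr22:23437434-23438605) had 298 reads in 813 and 130 in NT. Its 3′ record had 483 in 813 and 216 in NT, so both large parts of the transcript differed alike. RTDR1, which overlaps GNAZ, had 6 pairs in 813 and 4 in NT. GNA14 (chr9:80037995-80263232, minus strand) encodes a Gq-class alpha. It had 36 pairs (1.47 CPM) in 813 and 5 pairs (0.215 CPM) in NT, a log2 fold of 2.65 (1.42 to 4.48) that rests on few pairs. Its 5 3′-most records held 77 reads in 813 and 9 in NT, and its 2 5′-most records held none in either library. Its neighbour GNAQ, 71959 bases away and of the same class, was not called.

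The other alpha genes lay under 1 CPM. GNAL, the olfactory Gs-class subunit, had 5 pairs in 813 and 4 in NT, GNAO1, the main Go alpha of neurons, 4 in 813 and 11 in NT, and GNA15, the Gq-class subunit of blood cells, 1 in each. The transducins of rods and cones, GNAT1 and GNAT2, had 3 and 10 pairs in 813 and 0 and 5 in NT. GNAO1, GNAT1 and GNAT2 have intervals that include no difference.

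GNAS was also read by exon record, because its locus has several promoters. In imprinted tissues they make NESP55, XL alpha s and an untranslated transcript besides Gs alpha. The 2 5′-most records (chr20:57414795-57415941 and chr20:57428036-57430388), which carry NESP55 and XL alpha s, had 24 and 20 reads in 813, against 16 and 16 in NT. The next record (chr20:57464180-57464408) had 178 reads in 813 and 241 in NT. The record that starts Gs alpha itself (chr20:57466426-57466920) had 7509 in 813 and 10044 in NT. In both libraries the GNAS reads came almost wholly from the Gs alpha start onward. The 45-base record (chr20:57473996-57474040) that is alternatively spliced between the long and short forms of Gs alpha had 4590 reads in 813 and 5876 in NT, a log2 fold of -0.43 beside -0.48 for the gene. GNAS-AS1, which overlaps the 5′ end on the other strand, had 51 pairs in 813 and 42 in NT.

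No beta gene was called. GNB1 had 15571 pairs in 813 and 14776 in NT, a log2 fold of 0.00 (-0.03 to 0.03) that was 0.14 with plain library totals. GNB2 had 12462 pairs in 813 and 17149 in NT (-0.54, -0.57 to -0.50). The transcript of GNB2 is 64.4% G and C, and its log2 fold was -0.08 with the GC and length trend removed. GNB4 (280 pairs in 813, 202 in NT; 0.39, 0.13 to 0.66) and GNB3 (208 in 813, 186 in NT; 0.09, -0.21 to 0.38) were scarce. GNB5 is the divergent beta subunit that pairs with RGS proteins of the R7 class in place of a gamma subunit. It had 946 pairs (38.7 CPM) in 813 and 730 pairs (31.4 CPM) in NT (0.30, 0.16 to 0.44), and its 2 5′-most records held no read in either library. Its R7 partners RGS6, RGS7, RGS9 and RGS11 summed to 0.182 RPKM in 813 and 0.303 RPKM in NT. The membrane anchor of these complexes RGS7BP had 0 pairs in 813 and 2 in NT, and RGS9BP, the anchor of the photoreceptor form, 40 in 813 and 47 in NT.

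The gamma genes held both called directions. Gamma subunits are small proteins whose lipid tail anchors beta-gamma in the membrane. GNG7 (chr19:2511218-2702746, minus strand), known for its place with Gs-class olfactory alpha in the striatum, had 27 pairs (1.10 CPM) in 813 and 181 pairs (7.80 CPM) in NT. Its level in 813 was 6.95-fold lower (log2 fold -2.80, -3.46 to -2.23). All 5 of its exon records went the same way: the 3′ record (chr19:2511218-2515145) had 45 reads in 813 and 308 in NT, and the other 4 had 2, 0, 1 and 1 reads in 813 against 31, 14, 20 and 16 in NT. GNG4 (chr1:235710985-235814054, minus strand) had 224 pairs (9.16 CPM) in 813 and 570 pairs (24.6 CPM) in NT, a log2 fold of -1.42 (-1.65 to -1.20). Its 4 records with reads had log2 folds from -1.88 to -1.40, and its 5′-most record had no read in either library.

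GNG2 (chr14:52327022-52436518, plus strand), a widely expressed gamma subunit often used with GNB1 in biochemical work, went the other way. It had 109 pairs (4.46 CPM) in 813 and 41 pairs (1.77 CPM) in NT, a log2 fold of 1.32 (0.80 to 1.89). Its 3 records with at least 20 reads lay between 1.28 and 1.73. With the GC and length trend removed the log2 fold was 1.02 and the call ended; the transcript of GNG2 is 40.3% G and C. By RPKM, GNG2 had 0.922 in 813 against 0.334 in NT, and GNG7 0.209 in 813 against 1.35 in NT, so GNG2 lay above GNG7 in 813 and below it in NT. GNG4 stayed above GNG2 in both, with 1.39 in 813 and 3.40 in NT.

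The other measured gamma genes were not called. GNG5 had 2351 pairs in 813 and 2883 in NT (-0.37, -0.45 to -0.29), and -0.06 with the GC and length trend removed. GNG11, which carries a farnesyl tail, had 386 pairs in 813 and 243 in NT (0.59, 0.36 to 0.83), and GNG12 had 114 in 813 and 88 in NT (0.30, -0.12 to 0.72). GNGT2, the cone photoreceptor gamma, had 151 pairs in 813 and 185 in NT (-0.37, -0.69 to -0.05). It overlaps ABI3, which had 309 pairs in 813 and 647 in NT, and with no stated strand setting the reads of the pair cannot be told apart. GNG10 had 37 pairs in 813 and 31 in NT (0.18, -0.55 to 0.92), although its 3′ exon record (chr9:114431549-114432526) alone held 326 reads in 813 and 238 in NT. It shares 73.6% of its transcript at 99.7% identity with the read-through gene DNAJC25-GNG10, listed with 0 pairs in both libraries, so its gene count is uncertain. GNG3 had 17 pairs in 813 and 12 in NT, and its exon records, which overlap BSCL2, held 376 reads in 813 and 385 in NT. GNG8 had 4 pairs in 813 and 0 in NT, and GNG13, of taste and olfactory cells, 5 in 813 and 4 in NT.

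**Figure D3:**
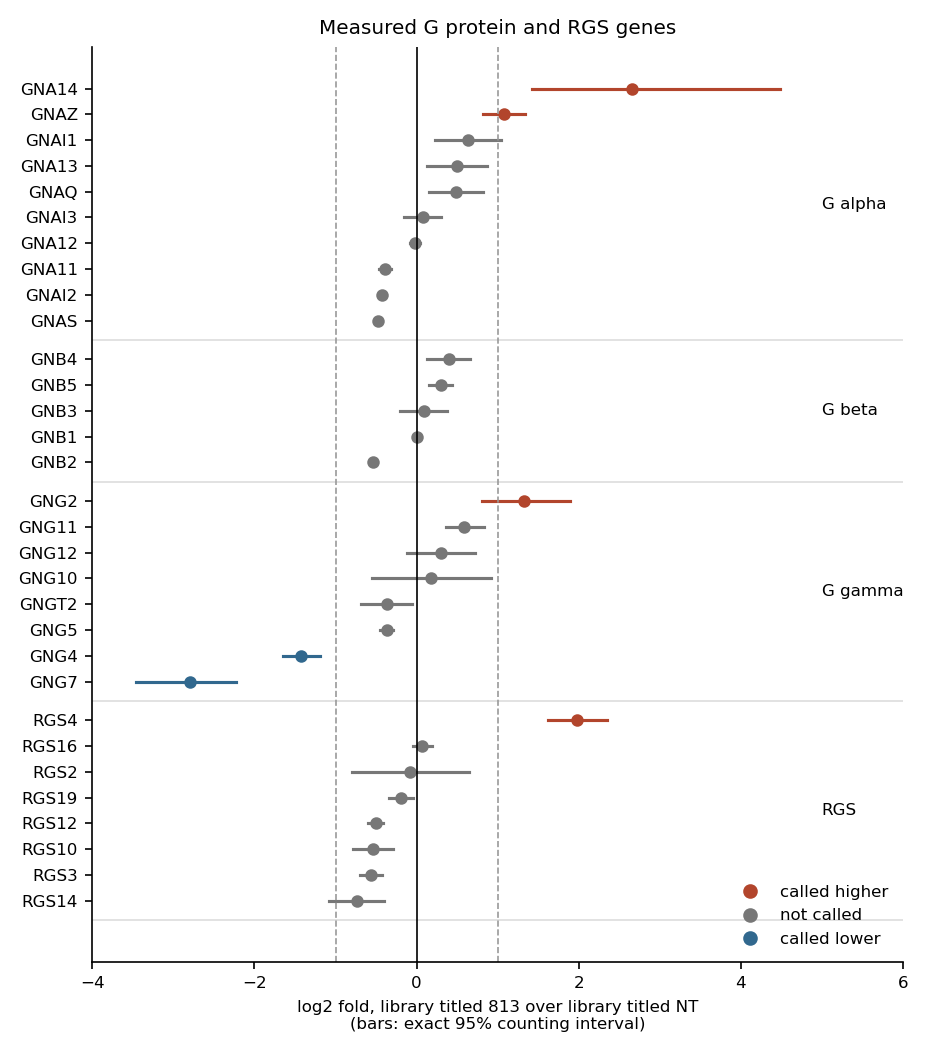
Log2 fold, 813 over NT (horizontal axis), of the 31 measured genes by class, with exact 95% counting intervals as bars and dashed lines at 2-fold; red points are called higher, blue points called lower and grey points neither. GNA14 (2.65), RGS4 (1.97), GNG2 (1.32) and GNAZ (1.07) lie to the right, GNG7 (-2.80) and GNG4 (-1.42) to the left.

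RGS4 was the RGS gene that was called. RGS4 (chr1:163038396-163046592, plus strand), a small member of the R4 class that acts on Gi and Gq alpha and is turned over fast as a protein, had 337 pairs (13.8 CPM) in 813 and 81 pairs (3.49 CPM) in NT. Its level in 813 was 3.93-fold higher (log2 fold 1.97, 1.63 to 2.35), and the log2 fold was 1.70 with the GC and length trend removed. Its 7 records with at least 20 reads, 3 of which overlap and share reads, had log2 folds from 1.35 to 2.41, and the last one (chr1:163044111-163046592) had 515 reads in 813 and 121 in NT. RGS5, which lies 65497 bases away and marks pericytes, had 16 pairs in 813 and 10 in NT, under 1 CPM in both.

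The promoters of called genes are shown because the targeted gene encodes a transcription factor. Promoter sequences were taken from RefSeq (GRCh38.p14), which listed 12 starts for 5 of the 6 called genes and none for GNAZ. The 250 bases before each start were searched on both strands for the RUNX core letters TGTGGT and TGCGGT; a promoter with both counted once. Either was found in 3 of the 12 (25%, 2 of GNG2 and the 1 of GNG4), beside 16.3% of all 35116 promoters listed. The share was 14.9% of the 87 listed for 45 of the 53 genes and 10.7% of the 56 listed for measured ones. Several of the 12 starts belong to the same gene, and windows of RGS4 overlap, so they are not separate promoters. The letters GGAAGGAA, a short form of the GGAA repeats that EWS/FLI1 binds, were in 2 of the 12 (1 of RGS4 and 1 of GNG2). They were in 6.90% of the 87, in 10.7% of the 56 of measured genes and in 3.06% of all promoters. A match describes letters only, and no binding was measured. Below is 1 start each of RGS4 (chr1:163069111-163069360, plus strand) and GNG2 (chr14:51861074-51861323, plus strand), chosen as those where GENCODE transcripts also begin. The first exons of those transcripts matched no exon record of these genes in length. The single listed starts of GNG4 (chr1:235650609-235650858, minus strand) and GNG7 (chr19:2702695-2702944, minus strand) are shown as well. Capitals mark RUNX core letters, at -226 from the start in GNG2 and -148 in GNG4. The sequences run 5′ to 3′ on the gene's strand and end at the base before the start. No GENCODE transcript begins exactly at the listed starts of GNG4 and GNG7. The 5′-most exon record of GNG4 had no read in either library. Whether A673 cells use any of these starts was not tested.
RGS4: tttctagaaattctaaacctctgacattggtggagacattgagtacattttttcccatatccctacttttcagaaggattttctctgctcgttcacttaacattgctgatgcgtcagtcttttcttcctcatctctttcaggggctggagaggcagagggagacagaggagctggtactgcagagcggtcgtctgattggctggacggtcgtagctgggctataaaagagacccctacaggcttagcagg
GNG2: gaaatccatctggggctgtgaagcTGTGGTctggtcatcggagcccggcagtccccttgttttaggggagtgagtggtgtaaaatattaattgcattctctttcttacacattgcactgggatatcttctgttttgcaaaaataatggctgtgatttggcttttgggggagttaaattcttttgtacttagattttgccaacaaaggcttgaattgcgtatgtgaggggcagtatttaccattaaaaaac
GNG4: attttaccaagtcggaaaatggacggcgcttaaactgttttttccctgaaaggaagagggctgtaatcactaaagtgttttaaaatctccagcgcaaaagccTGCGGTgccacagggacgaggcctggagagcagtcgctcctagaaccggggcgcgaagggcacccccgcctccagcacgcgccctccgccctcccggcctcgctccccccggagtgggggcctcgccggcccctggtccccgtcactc
GNG7: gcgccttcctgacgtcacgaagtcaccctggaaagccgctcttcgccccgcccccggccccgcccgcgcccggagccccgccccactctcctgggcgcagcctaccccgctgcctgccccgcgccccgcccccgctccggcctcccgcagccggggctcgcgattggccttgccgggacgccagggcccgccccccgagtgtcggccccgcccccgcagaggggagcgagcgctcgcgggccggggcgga
G and C made up 47.6% of the window of RGS4, 41.6% of GNG2, 62.4% of GNG4 and 81.2% of GNG7. They made up 65.6% of the single listed window of GNA14, which was called higher and is not printed. No GENCODE transcript begins exactly at that start, and the 2 5′-most exon records of GNA14 held no read in either library.

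The other measured RGS genes had log2 folds between -0.74 and 0.07. RGS16, an R4 protein induced by many signals, had the highest RPKM of the class and 1248 pairs in 813 against 1126 in NT (0.07, -0.04 to 0.19). RGS2, which acts mainly on Gq alpha, had 35 pairs in each library (-0.08, -0.79 to 0.64), and 0.06 with plain library totals. RGS19, a membrane-bound protein of the RZ class, had 685 pairs in 813 and 743 in NT (-0.19, -0.34 to -0.04), and 0.25 with the GC and length trend removed. All 3 genes of the R12 class had negative folds. RGS12, a multidomain scaffold, had 1718 pairs in 813 and 2317 in NT (-0.51, -0.60 to -0.42). RGS10, a short protein of immune cells and neurons, had 235 in 813 and 323 in NT (-0.53, -0.78 to -0.29). RGS14, which binds both Gi alpha and Ras-family proteins, had 121 in 813 and 192 in NT (-0.74, -1.08 to -0.41). With the trend removed they stood at -0.39, -0.68 and -0.35.

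The remaining 13 RGS genes lay under 1 CPM. RGS18, a protein of platelets, had 13 pairs in 813 and 1 in NT, and would be called with no filter on low counts. RGS17, of the RZ class, had 19 pairs in 813 and 5 in NT, and RGS11 had 6 in 813 and 20 in NT. RGS20 had 11 pairs in 813 and 8 in NT, RGS9 had 7 in 813 and 3 in NT, RGS21 had 4 in 813 and 2 in NT, RGS6 had 2 in 813 and 0 in NT, and RGS13 had 0 in 813 and 1 in NT. On the long arm of chromosome 1, the R4 genes RGS18, RGS21, RGS1, RGS13 and RGS2 follow each other at gaps of 56109 to 208443 bases, and only RGS2 among them was measured.

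RGS3 was not called as a gene, and its exons did not differ alike. RGS3 (chr9:116207011-116360018, plus strand) makes long forms with C2 and PDZ domains before the RGS domain, and short forms that hold little more than the RGS domain at the C-terminal end. The gene had 793 pairs in 813 and 1110 in NT, a log2 fold of -0.56 (-0.69 to -0.43). Its exon table has 33 records. The last 5 (chr9:116356200-116360018) held 1486 reads in 813 and 1460 in NT, a log2 fold of -0.05 (-0.20 to 0.10). The 28 records before them held 397 reads in 813 and 1230 in NT, a log2 fold of -1.70 (-1.95 to -1.47). Of the 24 of these with any read, 23 had log2 folds below 0; the exception (chr9:116327361-116327640) had 17 reads in 813 and 10 in NT. The share of RGS3 reads in the 5′ part was 21.0% (Clopper-Pearson 18.5 to 23.8) in 813 and 45.7% (43.0 to 48.4) in NT. The records summed to 1883 reads in 813 and 2690 in NT, above the 1586 and 2220 reads counted for the gene. A read that spans 2 records can be counted in both, so intervals over summed records are too narrow. The point of this split was chosen after the exon values were seen. It stood at -1.56 (-1.83 to -1.31) without the longest 5′ record, which had 56 reads in 813 and 271 in NT. Of 32 GENCODE transcripts of RGS3, 4 reach the run of 102, 62 and 167 bases that makes up records 2 to 4 of the last 5 with at most 1 exon before it, and 8 with more.

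**Figure D4:**
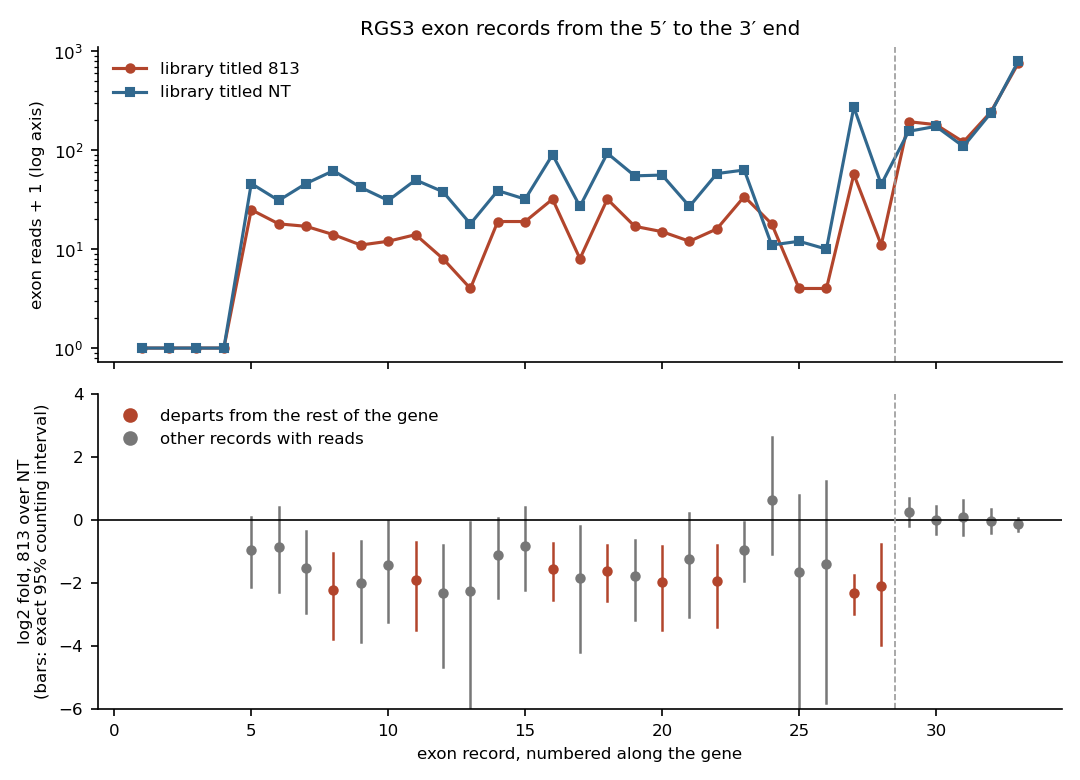
Upper panel, exon reads plus 1 (log axis) in the 33 RGS3 exon records in order from the 5′ to the 3′ end, in 813 (red) and NT (blue); lower panel, log2 fold of each record with reads, 813 over NT, with exact 95% counting intervals, cut at the panel's edge, and red points for the records that depart from the rest of the gene. Right of the dashed line the last 5 records lie together at a joint log2 fold of -0.05, and the records left of it lie at -1.70 together.

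The same question was put to the exons of all genes. An exon record with at least 50 reads, in a gene with at least 200, was said to depart where its fold differed 2-fold or more from the other records of its gene and the intervals did not overlap. Over all genes 0.423% of 92860 records departed. Of 185 records in 30 of the 53 genes, 8 departed (4.32%), and all 8 were 5′ records of RGS3, the farthest at -1.85 from the rest of the gene on the log2 scale and each at least 2-fold lower. The clearest was the 978-base record chr9:116345730-116346707, with 56 reads in 813 and 271 in NT (-2.33, -2.99 to -1.76).

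The 5′ and 3′ sides of every gene were also compared. Records with reads were divided at the midpoint of their number, with at least 50 reads on each side. Over 9090 genes the 5′ side minus the 3′ side had a median log2 difference of -0.02, and its 5th and 95th percentiles were -0.64 and 0.56. RGS3 was at -1.24, with 0.902% of genes below it, and 1.69% of all genes were at -1 or lower. RGS14 was at -0.86, with 21 reads on its 5′ side in 813 and 53 in NT, GNB4 at -0.75, with 63 in 813 and 76 in NT, and RGS10 at -0.61, with 131 in 813 and 257 in NT. The intervals of the sides overlapped in RGS14, GNB4 and RGS10. In RGS10 they overlapped narrowly, -1.04 (-1.50 to -0.61) on the 5′ side and -0.43 (-0.68 to -0.18) on the 3′ side. RGS4 was at 1.92 on the 5′ side and 1.96 on the 3′ side. Overlapping records were not merged, so the 5′ side of RGS4 counts 34 reads of 813 and 8 of NT up to 3 times and its interval is too narrow. No records of RGS3, RGS10, RGS14 or GNB4 overlap. Reads that span several records can still be counted in each, so the intervals of these genes are too narrow as well. The 24 genes that could be compared had a median difference of -0.06. RGS12 had a lower last record (chr4:3441182-3441640, 73 reads in 813 and 179 in NT), 0.85 below the rest of the gene on the log2 scale.

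**Figure D5:**
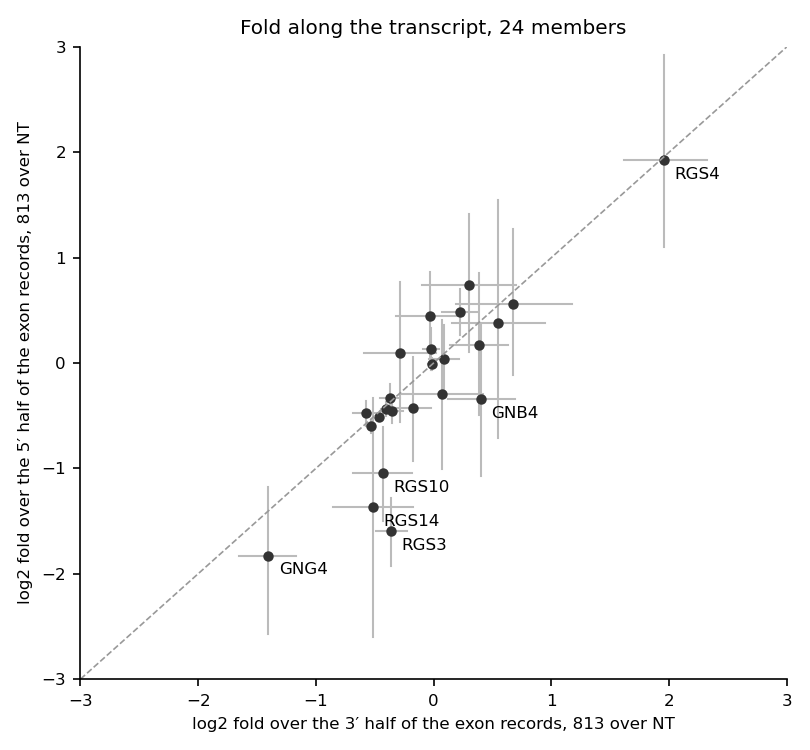
Log2 fold, 813 over NT, of the 5′ side (vertical axis) against the 3′ side (horizontal axis) of the exon records of the 24 genes with at least 50 reads on each side, with exact 95% counting intervals as grey bars and the dashed line where both sides are equal. RGS3 lies farthest below the line, at -1.60 on the 5′ side and -0.36 on the 3′ side, and RGS4 lies on it at 1.92 and 1.96.

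Other genes of G protein signalling were counted from fixed lists. Of 104 genes 69 were measured, 13 were higher (18.8%) and 3 lower (4.35%), beside 8.13% and 3.48% of all measured genes, with a median log2 fold of -0.02. The lists were drawn up with earlier results of these data known. The calls were in the listed receptors, in a few RhoA-linked and RGS-homology genes, and in the inositol trisphosphate receptor ITPR2. Of 24 measured receptors, for lipids, proteases, peptides and adenosine or of the adrenergic group, 8 were higher (33.3%) and 2 lower (8.33%). The higher ones included S1PR3, a sphingosine 1-phosphate receptor, at 139 CPM in 813 and 29.2 CPM in NT (log2 fold 2.25, 2.13 to 2.37). The thrombin receptor F2R had 86.8 CPM in 813 and 16.5 in NT (2.39, 2.24 to 2.56), and F2RL1 and F2RL2 had log2 folds of 3.09 and 3.53. The adenosine receptors ADORA1 (2.96), ADORA2A (1.43) and ADORA2B (1.52) and the prostaglandin E2 receptor PTGER4 (2.27) were also higher. The lower ones were ADRA2C, a Gi-coupled adrenergic receptor, with 32.2 CPM in 813 and 98.7 in NT (-1.61, -1.73 to -1.50), and S1PR5 with 0.858 CPM in 813 and 3.14 in NT (-1.85, -2.65 to -1.16).

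RGS-homology domains are also found outside the numbered RGS genes. Of 14 such genes measured, 3 were higher (21.4%) and 1 lower (7.14%), beside 8.13% and 3.48% of all measured genes. ARHGEF1, a RhoA exchange factor that is turned on by G12/13 alpha, was lower, with 2883 pairs in 813 and 9240 in NT (-1.76, -1.82 to -1.70). Its relative ARHGEF12 was higher, with 1040 pairs in 813 and 364 in NT (1.44, 1.27 to 1.62), a call that ended at 0.98 with the GC and length trend removed. AKAP10 (1.37), an anchor of protein kinase A, and SNX25 (2.90), a sorting nexin with 35 pairs in 813 and 4 in NT, were higher. Of 15 measured effectors of Gq and G12/13 alpha, which share ARHGEF1 and ARHGEF12 with that list, 3 were higher (20%) and 1 lower (6.67%). Besides ARHGEF12, the higher ones were the inositol trisphosphate receptor ITPR2 (1.60) and the exchange factor KALRN (1.07). The calls of ITPR2 and KALRN ended with the trend removed, at 1.12 and 0.56.

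Calls were absent from the remaining lists. Beside 8.13% higher and 3.48% lower over all measured genes, lists this short can hold no call without differing from other genes. None of 14 measured chaperones and non-receptor regulators was called, with log2 folds from -0.85 to 0.84; among them the alpha chaperones RIC8A and RIC8B were at -0.09 and 0.39. None of 7 measured receptor kinases and arrestins was called (-0.48 to 0.06), and none of 7 measured beta-gamma effectors (-0.40 to 0.45). Among the beta-gamma effectors PREX1, a Rac exchange factor, had 29170 pairs in 813 and 27724 in NT (log2 fold interval -0.03 to 0.02). Of the potassium channel genes, KCNJ3, KCNJ6 and KCNJ9 had no pair in either library. KCNJ5 had 17 pairs in 813 and 18 in NT, under 1 CPM in both.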

How the data were processed

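RNA of 1 A673 library per hairpin was measured, and groups were taken from the sample titles. Per the submitters' processing notes, CASAVA 1.9, TopHat2 2.0.6, HTSeq and genome build hg19 were used; neither their roles nor the annotation or strand setting were found in those notes or the labels. Per the file headers the authors deposited raw counts for genes and for exon records, beside RPKM. All deposited gene counts were even (0 odd values in either library), while 36.4% (813) and 35.5% (NT) of exon counts were odd, so a gene count was divided by 2 to give pairs; exon reads were printed as deposited and divided by 2 for folds and intervals. Of 23398 gene rows, 33 that repeated a gene with the same length and counts were dropped.

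Library sizes were scaled by TMM over all genes (edgeR 4.0.16, R 4.3.3). The log2 fold of scaled pairs, 813 over NT, used a prior of 0.5 pairs, and its interval is the exact conditional binomial interval (scipy 1.17.1). Intervals and floors leave out PCR duplication and the spread between cultures, since they rest on counting error alone. Intervals over summed exon records also leave out that a read can be counted in more than 1 record. The rule was tested on simulated counts. GC content came from the longest GENCODE release 29 transcript of each symbol (89.9% of measured genes, all 31 measured members); the trend was a spline fit (statsmodels 0.14.6) and held 15.4% of the variance of the log2 fold. Strands came from the same release, and near-identical copies (97% identity over 50% of a transcript) were sought with blastn 2.17.0. The rule for named genes took all 53 members and every called gene of the other lists. The genes and lists were chosen with earlier results of these data known.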

Additional observations from a re-analysis of the deposited data

How the results depend on the processing

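Alternatives were library totals or DESeq2 size factors for TMM, the authors' RPKM, other filters, undivided counts, an interval bound of 1-fold, a prior of 2 pairs, summed exon reads, and removal of the trend on GC content and length. The count of 2 lower members held under each of the 10. The count of 4 higher members was 2 at 5 CPM or more, where GNA14 and GNG2 lie under the filter; it was 3 with the trend removed and 5 with no filter, and 4 under the others. RUNX3 kept its direction and call under all of them. Departing exon records of members numbered 14 at a 1.5-fold departure (13 in RGS3 and 1 in RGS12) and 8 at 2-fold. Over all genes, undivided counts called 1121 higher and 496 lower genes, and the trend's removal, with 11022 genes, 666 and 279. Reads limit GNA14, RGS2, GNG10 and all members under 1 CPM. No paired analysis was possible because each group has 1 library.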

Other observations

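Several members lie beside each other in the genome. In some of these pairs both genes were scarce, as in the RGS18 to RGS13 run on chromosome 1. In others both were measured, as with GNA14 and GNAQ, or 1 gene was measured and the other was not. GNA11 had 2537 pairs in 813 and 3155 in NT, while GNA15, 14737 bases away, had 1 in each. GNG11 had 386 pairs in 813 and 243 in NT, while GNGT1, 10531 bases away, had none. RGS16 had 1248 pairs in 813 and 1126 in NT, and RGS8, 42244 bases away, had none.

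Measured genes within 500 kb of the called members were also read. Around GNG7, 28 genes were measured, 1 was lower and 0 higher by the same rule, beside 3.48% lower and 8.13% higher over all genes, with a median log2 fold of -0.28. The lower one was DIRAS1, a small GTPase of the Ras family, with 988 pairs (40.4 CPM) in 813 and 3741 pairs (161 CPM) in NT. Around GNG2, 2 of 3 measured genes were higher: NID2, a basement membrane protein, at 125 CPM in 813 and 43.0 in NT (1.54, 1.44 to 1.64), and FRMD6 (1.24, 0.75 to 1.76). Around GNAZ, RAB36 was higher (1.11, 0.87 to 1.36) of 2 measured. None of the 8 measured genes around GNG4, the 4 around RGS4 or the 2 around GNA14 was called.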
